A study of Abies pinsapo with 12 samples.

Results

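A set of 372 needle transcripts of Spanish fir (Abies pinsapo), out of 329801 listed, stood highest in unthinned control trees in August. They were chosen by their measured values: both control August libraries at 10 or more, the lower of them at least 2 times the highest value of the other 10 libraries, and a 12-library mean under 1000. That limit on the mean removed none, since the highest 12-library mean among the members was 190. Because these values chose the members, the control August peak itself is described here and not tested.

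The needles came from field-grown adult trees in 6 groups of 2 libraries each. In May 2017 and in August 2016, one group came from thinned plots whose trees were covered by a mesh giving light like that under the closed canopy (thinning plus shading), one from thinned plots without a mesh (thinning), and one from adjacent dense stands that had not been thinned (control). Thinning lowers competition for both water and light, while the mesh takes the light away again, so the 3 treatments were laid out to separate the pair of resources. Whether the 2 libraries of a group stem from separate trees is not stated, so the p-values below reflect only the spread between these libraries, which may be technical. Each month was sampled once and in its own year, and season, year and any sampling batch cannot be told apart.

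In conifers under summer drought, needles close their stomata early, hormone signals led by abscisic acid change the transcription of many genes, and cells build up protective proteins and solutes while growth and carbon gain slow down. Crowded trees meet such drought with less soil water and less light per tree than trees in open stands. The deposited identifiers carry no gene names, so neither these pathways nor the markers of needle tissue could be looked up, and the transcripts are described by identifier and level alone. Each identifier has the form given by the Trinity assembler, and its DN and c numbers together name a component, a group of related contigs that can be copies or pieces of 1 gene. Reads can be shared within a component, so its transcripts are not independent and a level of one may partly belong to another.

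Levels are given in scaled TPM, a length-corrected share of the library multiplied by 1 factor per library, so they may be compared between transcripts. In needles, fewer cells that make a transcript and less of it per cell cannot be told apart in such values. Sequencing depth is unknown, and a value of 0 means only that the transcript is listed at 0. Between 81710 and 117855 transcripts per library were listed above 0, except for 208032 in thinning May replicate 1. The May replicates were also unlike each other: over all 19726 tested transcripts (10 or more in at least 2 libraries) the root mean square SD between the replicates of thinning in May was 1.33 log2 units, against 0.494 for thinning in August. The May libraries did not group by their labels, those of thinning plus shading included. Across the tested transcripts, the library labelled thinning May replicate 2 correlated at 0.86 with control May replicate 1 and at 0.41 with its own replicate. The one labelled thinning May replicate 1 correlated at 0.85 with control May replicate 2, and highest, at 0.89, with thinning plus shading May replicate 1. Thinning plus shading May replicate 1 correlated at 0.87 with control May replicate 2. Its replicate 2 correlated at 0.86 with control May replicate 1, against 0.83 between the replicates of thinning plus shading in May. Whether labels and libraries match was not tested, and every May value below is by label.

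Over the 372 members, the median level was 49.1 in control August replicate 1 and 29.0 in replicate 2. In the other 10 libraries the median lay between 1.23 and 5.09. The members made up 3.88% and 2.61% of the summed values of the control August libraries. They made up between 0.120% and 0.412% of each other library. The control August mean was 38.8 for the median member and reached from 11.1 to 783, with 76 members at 100 or more and 217 under 50. The choice of the members fixes the direction of this gap and, for each member, a least ratio of 2. These medians and shares therefore follow in part from the choice. The height beyond that limit was not fixed.

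**Figure D1:**
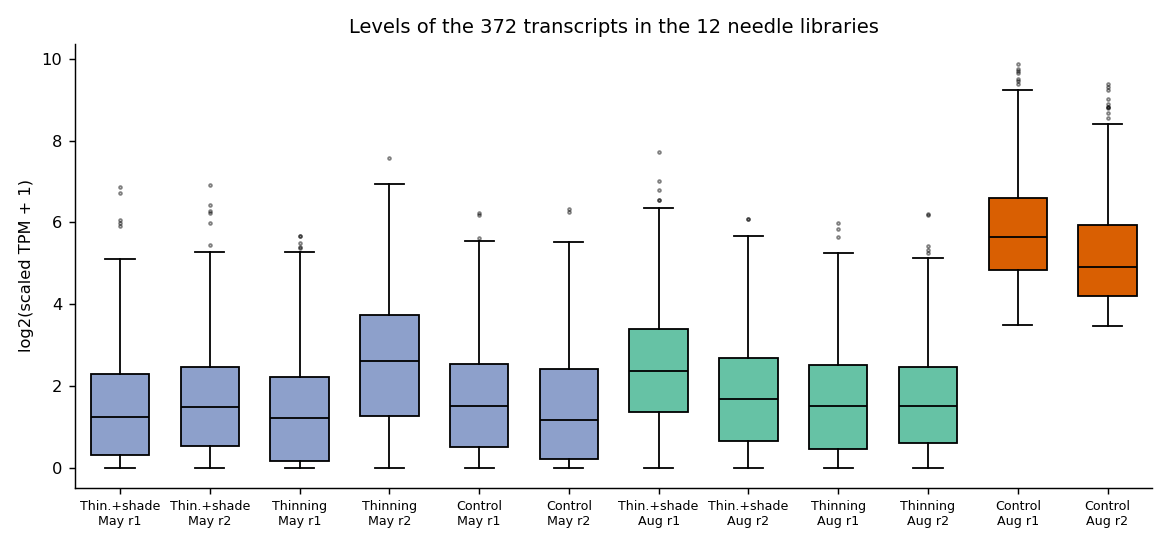
Levels of the 372 members in each of the 12 libraries, as log2(scaled TPM + 1); boxes span the quartiles, the line is the median, whiskers reach 1.5 box lengths at most and points lie beyond them. May libraries are blue, thinned August libraries green and control August libraries orange; the control August boxes stand highest because that chose the members, and thinning May replicate 2 and thinning plus shading August replicate 1 stand next, with medians of 5.09 and 4.14 scaled TPM.

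The height of the peak varied widely. The lower control August value was 3.83 times the highest other value for the median member, with quartiles at 2.70 and 8.28. For 117 members the ratio was under 3, for 180 it was 4 or more, for 73 it was 10 or more or could not be formed because all others were at 0, and for 34 it was 20 or more in the same sense. A further 125 transcripts met the other criteria at a ratio of 1.5 to under 2, and 472 at 1 to under 1.5, so the ratios run on across the limit. Just inside it stood TRINITY_DN1406_c0_g2 (ratio 2.01), with a lower control August value of 10.04 and a highest other value of 5.01, and TRINITY_DN17641_c0_g1 (2.01), with 26.5 and 13.2. Just outside stood TRINITY_DN17140_c0_g1 (1.99), with 36.6 and 18.4, and TRINITY_DN5243_c0_g3 (1.99), with 10.33 and 5.19.

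**Figure D2:**
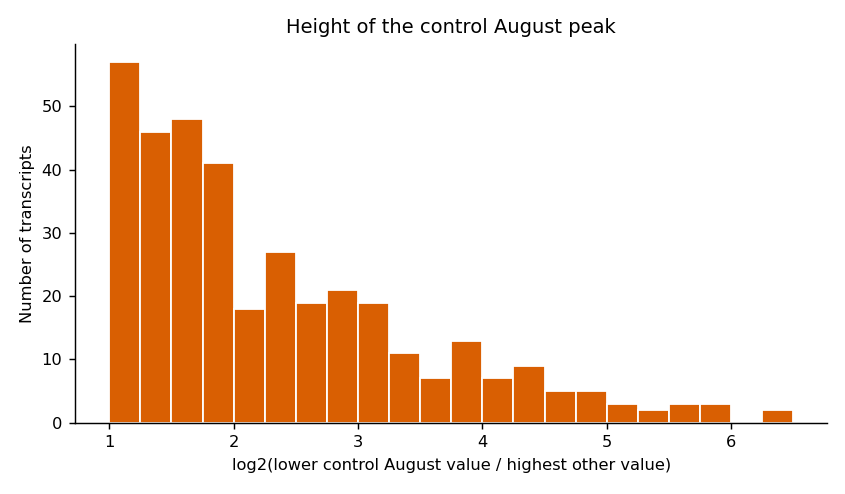
Number of members by the log2 ratio of the lower control August value to the highest value of the other 10 libraries, for the 366 members in which another library was above 0. The counts are highest next to the limit at the left edge and thin out to a largest ratio of 82.3.

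The same rule applied with another group as the high one found far fewer transcripts. It gave 11 for thinning plus shading in May, 1 for thinning in May, 8 for control in May, 9 for thinning plus shading in August and 4 for thinning in August, against the 372 for control in August. The rule asks for both replicates to be high, and the replicates of thinning in May were the least alike of the 6 groups. These counts are a description, and no test was made of them.

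The most abundant members kept a level above 0 in every library. TRINITY_DN3450_c0_g1 was at 103.7 and 84.9 scaled TPM with thinning plus shading in May, 7.17 and 189 with thinning in May, 32.5 and 23.9 in May control trees, 209.6 and 49.6 with thinning plus shading in August, 17.3 and 33.5 with thinning in August, and 860 and 670 in control trees in August. Its libraries outside control August spread over a wide range, and the replicates of thinning in May and of thinning plus shading in August were far apart. TRINITY_DN601_c1_g2 was at 33.2 and 42.9 with thinning plus shading in May, 40.4 and 121 with thinning in May, 27.1 and 44.5 in May control trees, 81.02 and 33.3 with thinning plus shading in August, 27.3 and 33.8 with thinning in August, and 934 and 632 in control trees in August. Here 8 of the libraries outside control August lay close together, and again thinning May replicate 2 and thinning plus shading August replicate 1 stood above them. The control August means were 765 ± 134 and 783 ± 214 (SD, n = 2).

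At the other end, 6 members were listed at 0 in all 10 libraries outside control August. TRINITY_DN150780_c0_g3 was at 23.03 and 18.0 scaled TPM in August control trees, and TRINITY_DN18849_c0_g3 at 26.9 and 17.03. All 6 were low in control August as well, with a median control August mean of 17.6. The largest ratio that could be formed, 82.3, belonged to TRINITY_DN3493_c0_g2, singled out after its values were seen. It was at 0 and 0.648 with thinning plus shading in May, 0 and 1.11 with thinning in May, 0 and 0 in May control trees, 0.540 and 0.433 with thinning plus shading in August, 1.03 and 0.548 with thinning in August, and 204 and 90.9 in control trees in August. All 10 other libraries thus stood near the bottom of the scale.

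Residual levels in the other 5 groups were low for most members, and most were above 0 in each library. By library, 4.57% to 22.0% of the members were listed at 0, against 1.47% to 3.69% of all tested transcripts. The rule caps the members in these libraries, so a larger share at 0 follows in part from the choice. The median member had a group mean of 1.68 scaled TPM with thinning plus shading in May, 3.49 with thinning in May, 1.70 in May control trees, 3.38 with thinning plus shading in August and 2.02 with thinning in August, against 38.8 in control trees in August. A mean of 10 or more was kept by 35, 80, 37, 74 and 35 members in these 5 groups in the same order. Between 79 and 148 members had a mean under 1 in a group. The highest of the 10 other values was under 10 in 236 members and 10 or more in 136, of which 16 reached 50.

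The higher residual mean of thinning in May came from 1 library, while thinning plus shading in August was raised in both libraries, more so in 1. The median member was at 1.33 in thinning May replicate 1 and at 5.09 in replicate 2. With thinning plus shading in August it was at 4.14 in replicate 1 and 2.18 in replicate 2, both above each library of the other 3 groups. The replicates of the other 3 groups differed less: 1.37 and 1.81 with thinning plus shading in May, 1.85 and 1.23 in May control trees, and 1.83 and 1.85 with thinning in August. The root mean square SD between replicates over the members was 1.34 log2 units for thinning in May and 0.747 for thinning plus shading in August, and 0.470 to 0.592 for these 3 groups.

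Thinning May replicate 2 held the highest value outside control August for 162 members (43.5%), and thinning plus shading August replicate 1 for 96 (25.8%). Over all tested transcripts these libraries were highest for 24.8% and 7.73%. In 155 members (41.7%) both of them were above each of the other 8 libraries, against 3.62% of all tested transcripts. The rule did not use which of the 10 libraries was highest. Across the members, the log2 levels of this pair of libraries correlated at r = 0.828 (n = 372 transcripts that share libraries and components, a description with no test). Thinning May replicates 1 and 2 correlated at 0.511, the lowest value of replicate 2 with any library. Thinning plus shading August replicate 1 also correlated at 0.841 with its own replicate and at 0.828 with thinning plus shading May replicate 2. Its correlation alone thus does not set the pair apart. As a share of the control August mean, the median member was at 11.7% in thinning May replicate 2 and 9.09% in thinning plus shading August replicate 1, against 2.59% to 4.54% in the other 8 libraries.

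**Figure D3:**
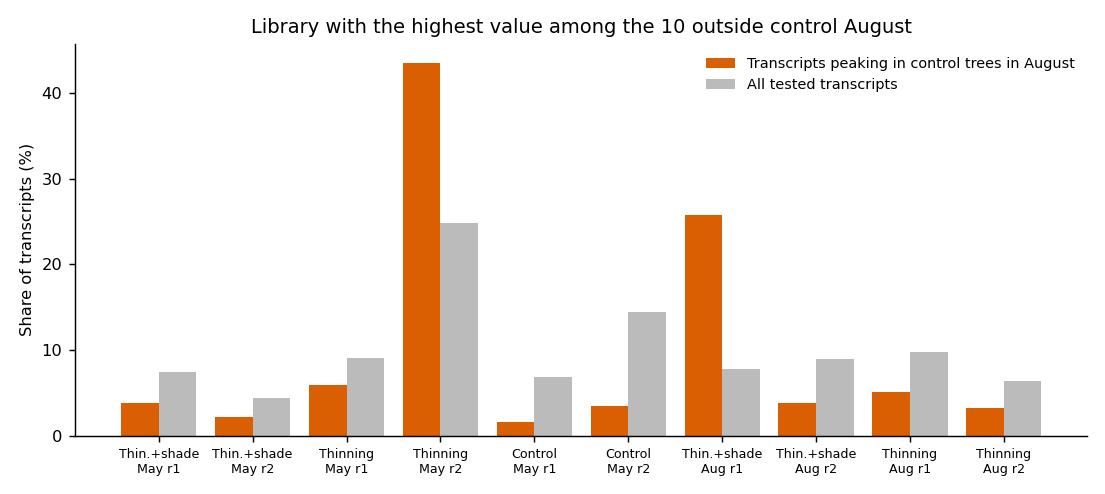
Share of transcripts, in percent, whose highest value among the 10 libraries outside control August lies in each library, for the 372 members (orange) and all 19726 tested transcripts (grey). Among the members, thinning May replicate 2 (43.5%) and thinning plus shading August replicate 1 (25.8%) lead.

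That share was far from uniform among the members. In thinning May replicate 2 it was under 2% of the control August mean for 50 members and 20% or more for 116. The cause of this spread was not tested, and the rule caps the share. In that library 17 members were at 0 and the lower quartile of the members was 1.40 scaled TPM. The 162 members highest there had a median control August mean of 51.9 and a median ratio of 4.81, the 96 highest in thinning plus shading August replicate 1 had 40.8 and 3.64, and the 108 highest in another library had 32.8 and 3.32.

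The control August libraries themselves were unequal in these transcripts. Replicate 1 was above replicate 2 in 321 of the 372 members (86.3%), against 48.1% of all tested transcripts. The median member was 1.56 times as high in replicate 1, and 92 members were at least 2 times as high. The widest gap was in TRINITY_DN1446_c0_g3, singled out for it, which was at 90.1 in replicate 1 and 10.2 in replicate 2 and at 0.132 to 3.57 elsewhere. The opposite extreme was TRINITY_DN7711_c0_g1, at 13.3 in replicate 1 and 33.4 in replicate 2. The lower value sets membership, so replicate 2 limits most of the list: without it, 1024 transcripts would meet the rule, and without replicate 1, 454.

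In each of the other 5 groups, the member with the highest mean was named among those for which that group was highest. TRINITY_DN4710_c1_g1 led with thinning plus shading in May, at 116 and 119 there and at 504 and 445 in control trees in August. TRINITY_DN601_c1_g2 and TRINITY_DN3450_c0_g1, described above, led with thinning in May and with thinning plus shading in August. TRINITY_DN32530_c0_g1 led in May control trees, at 20.8 and 26.3 there and 95.8 and 56.98 in control trees in August. TRINITY_DN25662_c0_g1 led with thinning in August, at 48.7 and 38.8, against 170 and 103 in control trees in August. The last pair are among the flatter members, at 10.8 to 27.3 and 26.1 to 48.7 in the 10 libraries outside control August. By highest group mean, 31 members were counted under thinning plus shading in May, 179 under thinning and 16 under control in May. In August, 113 were counted under thinning plus shading and 33 under thinning. The 31 include the 6 members at 0 in all 10 libraries outside control August, which have no highest group.

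By component, the 372 members fell into 287 components. There were 216 components with 1 member, 61 with 2, 6 with 3 and 4 with 4, so 156 members (41.9%) shared a component with another member. By DN number alone they fell into 257 clusters, 84 of them with 2 or more members and 3 with the most, 5 members each. In 132 of the components the table lists no other transcript at all. In 51 of the 71 components with several members, every listed transcript was a member.

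The component TRINITY_DN983_c0 split into 2 kinds of member. TRINITY_DN983_c0_g2 was at 2.18 and 3.29 scaled TPM with thinning plus shading in May, 3.43 and 37.1 with thinning alone in May, 6.76 and 3.67 in unthinned controls in May, 19.5 and 10.9 with thinning plus shading in August, 4.32 and 7.86 with thinning in August, and 318 and 161 in control trees in August. TRINITY_DN983_c0_g3 followed the same order of high libraries, at 12.4 in thinning May replicate 2 and 7.67 in thinning plus shading August replicate 1, against 118 and 59.8 in control trees in August. TRINITY_DN983_c0_g4 and TRINITY_DN983_c0_g5, in contrast, stayed at or under 0.809 in all 10 other libraries, against 90.1 and 38.1 and 85.2 and 33.9 in control trees in August. In thinning May replicate 2, g2 and g3 stood at 15.5% and 13.9% of their control August mean, and g4 and g5 at 1.26% and 1.24%.

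TRINITY_DN3495_c0 held an abundant and a scarce pair with like profiles. TRINITY_DN3495_c0_g2 was at 145 and 83.9 scaled TPM and TRINITY_DN3495_c0_g1 at 131 and 74.7 in control trees in August, and the highest other values, 13.1 and 10.3, were both in thinning plus shading August replicate 1. TRINITY_DN3495_c0_g3 was at 18.9 and 13.2 and TRINITY_DN3495_c0_g4 at 18.7 and 11.1 in control trees in August, with highest other values of 3.39 and 2.27 in that same library. All 4 thus had thinning plus shading August replicate 1 next to control August.

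TRINITY_DN1255_c0 was near 0 outside control August. Its 4 members, TRINITY_DN1255_c0_g1, TRINITY_DN1255_c0_g2, TRINITY_DN1255_c0_g3 and TRINITY_DN1255_c0_g4, were at 104 and 55.5, 81.4 and 40.96, 47.98 and 16.7, and 28.7 and 18.8 scaled TPM in control trees in August. Their highest value in any other library was 1.92, in TRINITY_DN1255_c0_g3. Another listed transcript of the component, TRINITY_DN1255_c0_g5, was at 14.4 and 5.83 in control trees in August and at 1.03 or less elsewhere, and missed the minimum of 10 in 1 library.

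**Figure D4:**
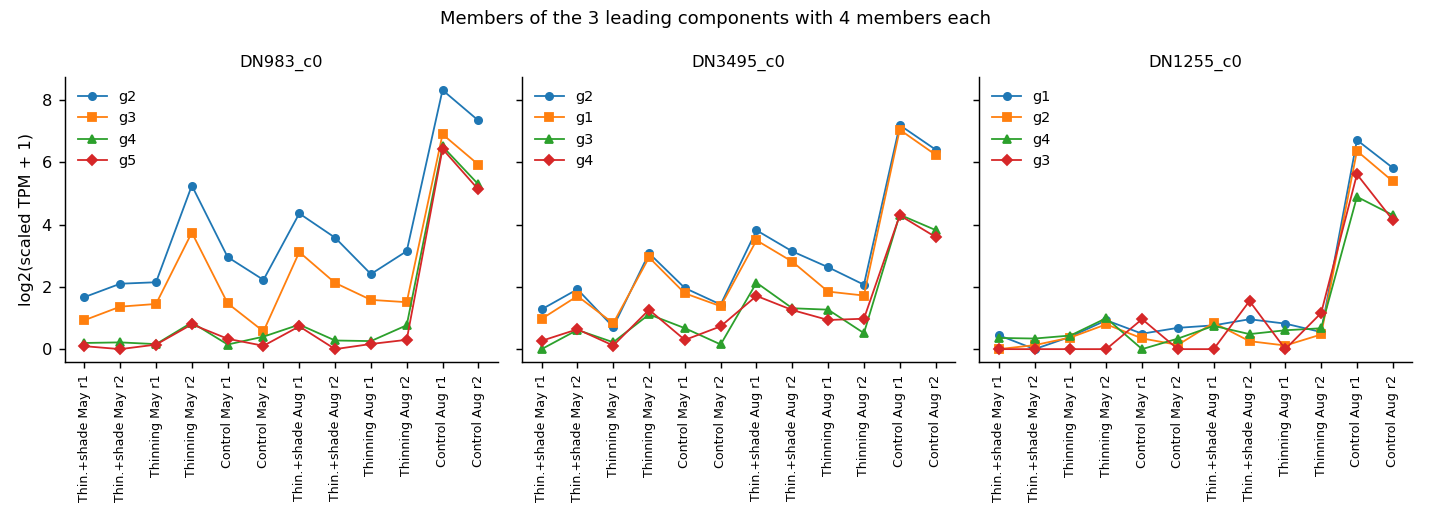
Levels, as log2(scaled TPM + 1), of the 4 members of each of 3 components in the 12 libraries; thin lines join the values of 1 transcript and mark no order in time. In DN983_c0 the members g2 and g3 stand above g4 and g5 in every library outside control August, and in DN1255_c0 all 4 members stay at or under 1.92 scaled TPM there.

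Members of 1 component tended to vary together outside control August. Over the 10 other libraries, the median Pearson correlation of log2 levels was 0.833 for the 98 pairs within a component, with 51 pairs over 0.8 and 16 under 0.3, and 0.330 for all 66795 pairs of the 366 members that varied. In 65 of the 98 pairs the same library was highest. Pairs within a component can share reads, and all pairs share the same libraries, so these are descriptions.

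The other transcripts of these components were mixed. Of 180 listed in the members' components without being members, 92 reached 10 in some library, control August included. Some thus enter through the group that chose these components, so the shares that follow are a description, with no test. In 43 of the 92 (46.7%) both control August libraries were also above all 10 others, against 3.73% of the 24344 transcripts outside the list that reached 10 in any library. In the other 49 they were not. TRINITY_DN1406_c0_g1, for example, fell just short of the rule at 139 and 148 in control trees in August and 72.1 in thinning May replicate 2. TRINITY_DN6322_c0_g3 had another pattern, at 121 and 46.7 with thinning plus shading in May, 80.8 and 0.143 with thinning in May, 36.5 and 58.9 in May control trees, 39.5 and 33.0 with thinning plus shading in August, 39.5 and 10.1 with thinning in August, and 8.60 and 10.1 in control trees in August. Both were singled out after their values were seen. A member of that last component, TRINITY_DN6322_c0_g1, was at 41.9 and 34.7 in control trees in August and at 1.25 to 4.70 elsewhere.

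The rule capped the 10 libraries outside control August but did not set them against one another, so differences among those 5 groups could be tested. The test was limma on log2(scaled TPM + 1), fitted to all 19726 transcripts, all 372 members included; every member enters through its 2 control August values, and 236 members are under 10 in all other libraries. Such low levels and the cap leave less room for a call. An absence of calls among members therefore does not show that the 5 groups are alike, and the shares over all tested transcripts are background only. Members share the same libraries and, within a component, reads. A share of members on one side of 0 is therefore a description, and members are not replicates of a treatment. Calls were made at a Benjamini-Hochberg adjusted p under 0.05 over all transcripts. Where a setting was changed or a library left out, the share of all tested transcripts called counts both directions together. In all 5 comparisons, 0 members were called. The members, scarce outside control August, had wider errors: the median standard error of a shading difference within a month was 0.80 log2 units for members and 0.38 for all tested transcripts.

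In thinned trees, shaded or not, no member passed the test between May and August. Of all tested transcripts, 3.67% were called higher in May and 5.15% lower. At an unadjusted p under 0.05 by limma, 3 members were higher in May and 17 lower, or 0.806% and 4.57%, against 12.7% and 14.3% of all tested. All 4 May libraries were above all 4 August libraries in 2 members and below them in 16, against 8.92% and 9.99% of all tested transcripts. The median log2 difference was -0.04 over the members and 0.04 over all. The member nearest a call, singled out for it, was TRINITY_DN7338_c0_g1, at 2.13, 2.22, 1.53 and 0.502 in thinned trees in May and 6.33, 5.40, 6.14 and 3.70 in thinned trees in August (log2 difference -1.34, SE 0.35, limma adjusted p = 0.052). Its May and August libraries did not overlap, and in control trees it was at 0.605 and 2.12 in May and 36.7 and 23.2 in August.

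The number of members called here depended on single libraries. It was 13, all lower in May, without thinning May replicate 2, 10 without thinning May replicate 1 (6 higher and 4 lower in May), and 8, all lower in May, when each library was put on the same total, a rescaling that shifted the median over all tested transcripts by -0.29 on the log2 scale. These are 3.49%, 2.69% and 2.15% of the members, and 14.3%, 22.6% and 17.9% of all tested transcripts were called under the same settings.

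With the mesh in August, most members stood higher than without it, but none passed the test. The log2 difference of thinning plus shading minus thinning was above 0 in 285 members (76.6%), against 54.2% of all tested transcripts, with a median of 0.40 over the members and 0.04 over all. No member was called, and 0% of all tested transcripts were called in either direction. At an unadjusted p under 0.05 by limma, 9 members were higher and 1 was lower, against 1.71% and 2.87% of all tested. Both shaded libraries were above both unshaded ones in 132 members (35.5%) and below in 11 (2.96%), against 21.4% and 18.8%. Without thinning plus shading August replicate 1 the median difference over the members was 0.09, and without replicate 2 it was 0.69. TRINITY_DN1699_c0_g1, the member with the smallest p, was at 17.6 and 7.35 with the mesh and 4.21 and 3.44 without it (log2 difference 1.37, SE 0.37, limma adjusted p = 0.84).

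In May the sign was the other way, and again no member was called. The log2 difference of thinning plus shading minus thinning was above 0 in 74 members (19.9%), against 50.9% of all tested transcripts, with medians of -0.45 and 0.01. Of all tested transcripts 0.0101% were called higher and 0% lower. At an unadjusted p under 0.05 by limma, 1 member was higher and 15 were lower, against 6.01% and 2.03%. Both shaded libraries were above both unshaded ones in 20 members and below in 69, against 18.9% and 11.8%. The difference rests on thinning May replicate 2: without it the median over the members was 0.03, and without replicate 1 it was -0.84 with 32 members called, all lower with the mesh, from a single thinning library assumed to vary like the other groups. Those 32 are 8.60% of the members, and 12.4% of all tested transcripts were called in that fit. TRINITY_DN10214_c1_g1, with the smallest p, was at 12.4 and 11.5 with the mesh and 30.6 and 41.9 without it (log2 difference -1.51, SE 0.30, limma adjusted p = 0.60).

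The difference between the months in the effect of the mesh was tested as an interaction. No member was called, with 0% of all tested transcripts called in either direction, although the median log2 value (May minus August) was -0.81 over the members and -0.03 over all. At an unadjusted p under 0.05 by limma, 0 members were higher and 23 were lower, against 6.28% and 2.36% of all tested. Leaving out thinning May replicate 2 brought the median to -0.29, and leaving out replicate 1 brought it to -1.28, with 24 members then called lower, again with a single thinning library in May. They are 6.45% of the members, and 6.70% of all tested transcripts were called in that fit.

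In May, most members stood higher in thinned trees than in control trees, but none passed the test. The log2 difference of thinned trees, shaded or not, minus control was above 0 in 260 members (69.9%), against 36.0% of all tested transcripts, with medians of 0.20 and -0.12. No member was called, and 0% of all tested transcripts were called in either direction. At an unadjusted p under 0.05 by limma, 5 members were higher and 0 lower, against 1.53% and 4.42%. All 4 thinned libraries were above both control libraries in 26 members and below both in 8, against 3.07% and 7.86%. Without thinning May replicate 2 the median over the members was -0.02. TRINITY_DN49800_c0_g1 had the smallest p, at 5.08, 4.05, 3.40 and 10.04 in thinned trees and 1.501 and 0 in control trees (log2 difference 1.97, SE 0.54, limma adjusted p = 0.62).

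**Figure D5:**
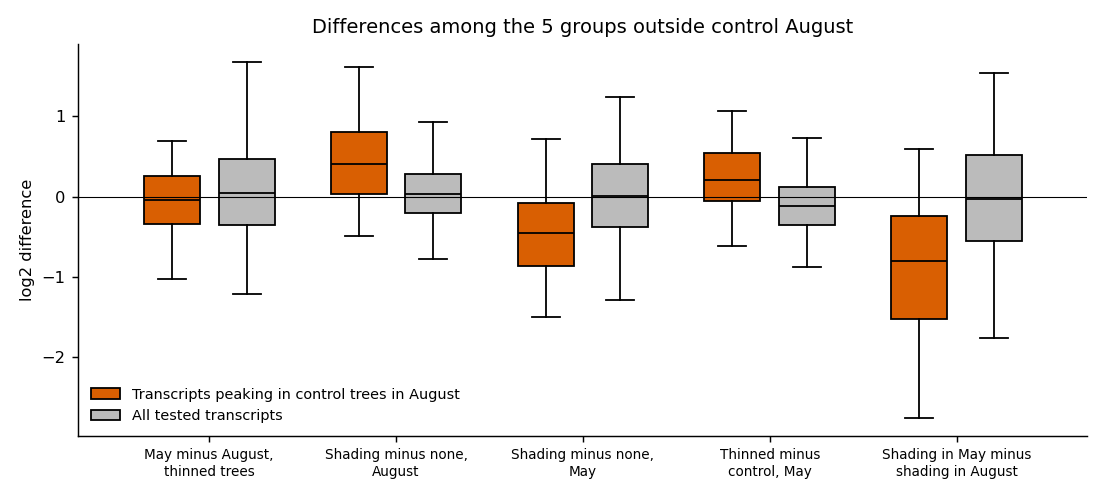
Log2 differences in 5 comparisons that leave control August out, for the 372 members (orange) and all 19726 tested transcripts (grey); boxes span the quartiles, lines are medians and whiskers run from the 5th to the 95th percentile. The members' medians are -0.04, 0.40, -0.45, 0.20 and -0.81 from left to right, and none of the 372 members was called in any of the 5.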

How the data were processed

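RNA from needles was sequenced in 12 libraries (poly(A)-selected TruSeq, paired reads of 150 bp, per the labels' protocols, which also speak of pine roots; all tissue labels say needles). Trimmomatic, RSEM and DESeq2 are listed, with no version, in the submitters' processing notes; how the authors assembled and scaled the data is not given in the sources used here. Each deposited value is a signal: columns sum to between 856638 and 1179097, and after rescaling at least 99.3% of nonzero values are multiples of 0.01 to within 0.1 of that step, as TPM with 2 decimals times 1 factor per library. TPM keeps no depth, so no count test was run.

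Columns were matched to samples by description. The members and all lists were chosen with earlier results of these data known. All 372 members passed the filter of 10 or more in at least 2 libraries, through their control August values. limma 3.58.1 (R 4.3.3) was run on log2(value + 1) with 6 group means and empirical Bayes with an intensity trend. P-values were two-sided and adjusted by Benjamini-Hochberg over 19726 transcripts. A run on simulated data gave every library the same mean per transcript before changes were added. The members are unlike that, and no statement here rests on it. Contrasts with control August were not tested. Named were the 2 members highest in their lower control August value, the 2 with the largest ratio and the 2 on either side of the limit. Also named were the members of 3 of the 4 components with 4 members, those with the highest summed control August level. TRINITY_DN921_c0 was the one left out. The leading member of each other group was named too, and called members, of which there were none. Others are said to be singled out. The member with the smallest p of each of the 5 comparisons, the interaction aside, was also added afterwards.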

Additional observations from a re-analysis of the deposited data

How the results depend on the processing

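The rule gave 180 members at a ratio of 4, 239 at a minimum of 20 and 449 without the library factor, of which 370 were among the 372; leaving out 1 library at a time gave 373 to 1024. Leaving out thinning May replicate 2 and thinning plus shading August replicate 1 together, chosen after seeing the data, gave 463. With a ratio of 4 the residual medians were 0.603, 1.40, 0.618, 1.31 and 0.642 for thinning plus shading in May, thinning in May, control in May, thinning plus shading in August and thinning in August. The last was 2.27 without the library factor. From single libraries the medians were 1.37 to 1.81, 1.33 to 5.09, 1.23 to 1.85, 2.18 to 4.14 and 1.83 to 1.85 in the 5 groups, in the order thinning plus shading, thinning and control in May, then thinning plus shading and thinning in August. Between May and August in thinned trees, the members called were 8 without the library factor, 1 after quantile normalization and 0 to 13 without 1 library. Without 1 library they were 0 to 32 for shading in May and 0 to 24 for its interaction with month, where the highest counts are 8.60% and 6.45% of the members beside 12.4% and 6.70% of all tested transcripts in the same fits, and 0 for shading in August and for thinned against control in May. Every other alternative run gave 0. These were pseudocounts of 0.5 and 8, no filter, a filter of 50 that kept 111 members, and fits of only the groups compared. For May against August in thinned trees they called 8.78%, 8.47%, 0.0921%, 13.5% and 3.16% of all tested transcripts, in either direction. There, 17.9% were called without the library factor and 8.47% after quantile normalization, beside 2.15% and 0.269% of the members. In the other comparisons these shares were at most 0.0414%. The cause of the changes was not tested. Replicate numbers did not pair the libraries in the same way in all groups. Deviations of same-numbered libraries correlated at -0.707 to 0.629 over 15 pairs of groups, 5 of them over 0.1. In May, thinning plus shading and thinning correlated at 0.629, and control correlated with them at -0.539 and -0.707. With the replicate number as a block, 0 members were called in all 5 comparisons. Of all tested transcripts, 5.87% were called between May and August in thinned trees with that block. Such a block cannot take up a pattern that runs the other way in control May, so these counts decide nothing about it. Depth is unknown, and values near 0 limit what can be compared outside control August.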
